A study of Homo sapiens with 16 samples.

Results

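The comparison set HOXB13 occupancy in LNCaP cells with HOXB13 targeted by a short hairpin RNA against the same cells with a control hairpin. Its members are all peaks of these libraries, 22864 after HOXB13 shRNA (47195335 tags) and 91430 with the control shRNA (34363025 tags), of 816313 peaks in the 12 lists of the series used here. LNCaP is a prostate cancer line from a lymph node metastasis. Cells were infected for 7 days with HOXB13 shRNA or with the control vector pGIPZ, and chromatin was immunoprecipitated with 1 HOXB13 antibody lot. Further libraries with the same antibody came from cells given the HOXB13 shRNA together with a virus for wild-type HOXB13 (WT) or for the G84E form. HOXB13 RNA and protein levels were not analysed here. Each group was 1 library, so no test between conditions exists, and every interval covers counting error only. In bulk chromatin a lower tag count cannot tell fewer occupied cells from less protein per site.

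HOXB13 is a homeodomain transcription factor that marks the prostate lineage and persists in most prostate cancers. It binds enhancers in part alongside the androgen receptor and the pioneer factor FOXA1, and it is linked to the deacetylase HDAC3, the enzyme of the NCOR and SMRT corepressor complexes. G84E is the inherited form associated with prostate cancer risk. In ChIP-seq, tags pile up where the antibody's target sits on DNA, and a peak list names the places where the pile stands over its surroundings.

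Few of the control HOXB13 peaks were called after HOXB13 shRNA. Of the 91430 control peaks 1353 were called again, 1.48% (Wilson 95% interval 1.40 to 1.56). At a normalized tag count (tags in the peak, scaled to 10000000 tags in the library) of 10 or more there were 768 peaks after HOXB13 shRNA and 23856 in the control, and at 20 or more 379 and 4950. Among the strongest peaks the counts came close: 127 peaks reached 100 after HOXB13 shRNA, against 107 in the control, 33 and 34 reached 500, and 13 and 13 reached 1000. Without regions called in 9 or more of the 12 lists there were 597 peaks after HOXB13 shRNA and 22742 in the control at 10 or more, 53 and 49 at 100 or more, and 8 and 12 at 500 or more.

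**Figure D1:**
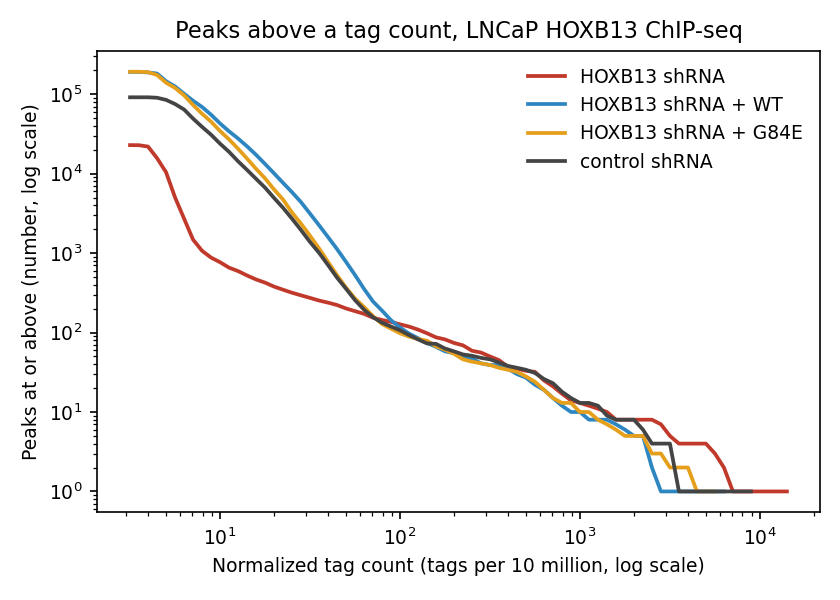
Number of peaks (log scale) at or above each normalized tag count (log scale, scaled to 10000000 tags) in the 4 LNCaP HOXB13 libraries, 1 line per library. The HOXB13 shRNA line lies below the others from the lowest values to 50 or more (201 peaks, against 363 in the control) and near them from 100 on, where it counts 127 peaks and the control 107.

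Peaks held 2.13% of all tags after HOXB13 shRNA and 9.17% in the control. The tags in the strongest peaks differed less. Peaks of 100 or more held 0.856% of the library's tags after HOXB13 shRNA and 0.636% in the control, and peaks in 9 or more lists 0.752% (515 peaks) and 0.770% (1990 peaks). With fewer tags in peaks in all, such peaks made up a larger share of the tags in peaks after HOXB13 shRNA, 40.3% against 6.94% for peaks of 100 or more and 35.4% against 8.40% for those in 9 or more lists. The strongest peak carried 15711.1 normalized tags after HOXB13 shRNA and 9132.2 in the control.

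Retention was low at every ordinary strength and high only in the extreme class. Among control peaks under 5 normalized tags 0.759% were called after HOXB13 shRNA, among those of 5 to 10 1.08%, of 10 to 20 1.90%, of 20 to 50 3.66%, and of 50 to 100 13.3% (34 of 256, 95% interval 9.66 to 18.0). Of the 107 control peaks of 100 or more 82 were called, 76.6% (67.8 to 83.6). Without regions in 9 or more lists this top class kept 26 of 49, 53.1% (39.4 to 66.3), and the class of 50 to 100 kept 13 of 203. The knockdown list itself counts towards the 9, so kept peaks were left out more readily than lost ones. This lowers the shares kept without such regions.

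The libraries with re-expressed protein came from cells that carried the same hairpin. Control peaks of 20 to 50 were called at 3.66% after HOXB13 shRNA alone, at 98.6% with WT and at 97.9% with G84E. Those of 10 to 20 were called at 1.90%, 90.5% and 85.4% in the same order. Retention was also counted by whether a site was found with WT or G84E: 1.61% of the 49603 control peaks found with both forms were called after HOXB13 shRNA alone, 1.42% of those with WT alone, 1.39% with G84E alone and 1.25% of the 21570 with neither.

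**Figure D2:**
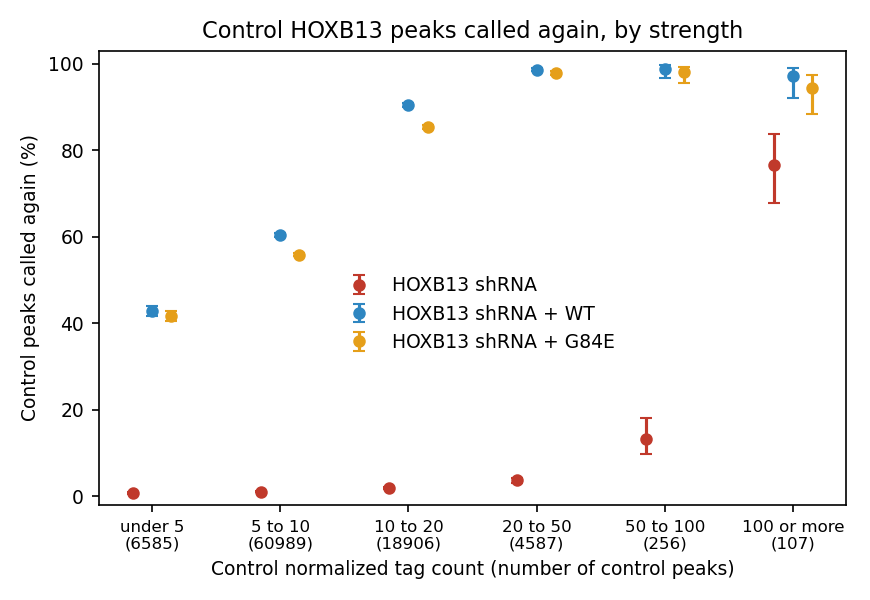
Share of control HOXB13 peaks called again (%, points with Wilson 95% intervals) in 6 classes of control normalized tag count, with the number of control peaks under each class. HOXB13 shRNA points stay at 13.3% or below up to 100 tags while WT points lie between 97.2% and 98.8% and G84E points between 94.4% and 98.0% from 20 tags on.

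Sharply focused control sites were nearly all without a call after HOXB13 shRNA, as were control peaks in general. Control peaks on the autosomes and X in fewer than 9 lists with a deposited tag density at least 30-fold over the surrounding 10000 bp numbered 425, a class chosen after the values were seen. Of these, 6 were called after HOXB13 shRNA, 424 with WT and 421 with G84E. Over all control peaks in fewer than 9 lists, 1.07% were called after HOXB13 shRNA, 66.9% with WT and 62.7% with G84E. The 415 focused sites that were lost and found with both forms had a median of 37.8 normalized tags in the control (7.28 to 103.6). Over whole lists, 2.18% of the peaks after HOXB13 shRNA and 19.4% of the control peaks exceeded the surrounding region 10-fold.

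The strongest of these 415 sites had high values in the 3 other LNCaP HOXB13 libraries. A site at chr5:58599085-58599375 (positions are hg19) had no peak after HOXB13 shRNA, 107.5 normalized tags with WT, 70.4 with G84E and 103.6 in the control, and the nearest peak after HOXB13 shRNA lay 99.1 kb away. HDAC3 at this site had 11.4 normalized tags after HOXB13 shRNA and 14.8 in the control. A site at chr6:123774227-123774517, 61.2-fold over its surroundings, had none after HOXB13 shRNA, 113.2 with WT, 91.9 with G84E and 96.3 in the control. At chr18:6992944-6993234 the values were no peak after HOXB13 shRNA, 89.6 with WT, 91.9 with G84E and 94.0 in the control. Each of these control values was over 20 times the tag threshold of the knockdown list, and the level after HOXB13 shRNA cannot be given because the list holds values only inside peaks.

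The next 3 sites also had no peak after HOXB13 shRNA, and each had an HDAC3 peak in the control and none after HOXB13 shRNA. At chr3:187924600-187924890 there was no peak after HOXB13 shRNA, 107.3 normalized tags with WT, 92.6 with G84E and 94.0 in the control, with 23.7 normalized tags of control HDAC3. At chr10:127322116-127322406 the HOXB13 values were no peak after HOXB13 shRNA, 112.5 with WT, 89.6 with G84E and 89.6 in the control, with 25.5 normalized tags of control HDAC3. At chr20:10639420-10639710 they were no peak after HOXB13 shRNA, 106.5 with WT, 105.9 with G84E and 88.8 in the control, with 23.7 normalized tags of control HDAC3. An ATAC peak was called at this chromosome 20 site in both conditions, with 7.06 normalized tags after HOXB13 shRNA and 6.09 in the control. The other sites differed. The chromosome 10 and 18 sites had an ATAC peak in the control alone (3.6 and 4.98). The chromosome 3 site had one after HOXB13 shRNA alone (4.71), and the chromosome 5 and 6 sites had none in either condition.

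The knockdown list used a threshold of 20 tags, which is 4.24 normalized tags, and the control list one of 16 tags, or 4.66. Control peaks were therefore counted by multiples of 4.24. Of 7302 control peaks of at least 4 times that value 6960 were not called after HOXB13 shRNA (95.3%), and 96.3% of these 6960 were found with both WT and G84E. At 8 times it 962 of 1125 were not called. At 16 times it 69 of 167 were not called. An absent call sets no strict upper limit, because peaks must also stand 4-fold over the surrounding 10000 bp, a rule that removed 35.6% of 35610 candidate peaks after HOXB13 shRNA and 22.0% of 117294 in the control.

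The distance to the nearest peak was measured for each lost site. The median distance from a lost control site to the nearest peak after HOXB13 shRNA was 40.8 kb, against 0.074 kb to the nearest WT peak and 0.086 kb to the nearest G84E peak. Of the lost sites 1.96% had a peak within 1 kb after HOXB13 shRNA. The lists differ in length, so these distances describe the lists and not a shift of a site.

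ATAC and HDAC3 peaks were still called at part of the lost sites. Of the 90077 lost sites 8966 had a control ATAC peak, and 64.1% of these (63.1 to 65.1) also had an ATAC peak after HOXB13 shRNA. Of the 11637 with a control HDAC3 peak 43.9% (43.0 to 44.8) had one after HOXB13 shRNA. At the 1353 kept sites these shares were higher, 78.1% of 430 for ATAC (74.0 to 81.8) and 80.5% of 616 for HDAC3 (77.2 to 83.5). The kept sites were stronger in the control, with a median of 9.60 normalized tags against 7.28 at lost sites, and the shares were not matched on strength. Among lost sites of 20 or more control tags the shares were 61.9% of 1658 for ATAC (59.6 to 64.2) and 46.1% of 2026 for HDAC3 (43.9 to 48.2). Shares over all control ATAC and HDAC3 peaks are not given, so lost sites cannot be set against sites in general. The ATAC library had 25478410 tags after HOXB13 shRNA and 36133795 in the control. HDAC3 peaks were narrower after HOXB13 shRNA (365 against 471 bp).

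Control sites with HDAC1 were called more often after HOXB13 shRNA. HDAC1 is a class I deacetylase of the NuRD, Sin3 and CoREST complexes. Of the 1775 control HOXB13 peaks with a control HDAC1 peak 444 were called after HOXB13 shRNA, 25.0% (23.1 to 27.1), against 1.01% (0.95 to 1.08) of the 89655 without. The contrast held within each class of control strength: 17.0% of 1043 with HDAC1 and 0.806% of 59946 without at 5 to 10 normalized tags, 26.0% of 430 and 1.34% of 18476 at 10 to 20, and 48.1% of 162 and 2.03% of 4425 at 20 to 50. Leaving out regions in 9 or more lists gave 21.9% and 0.854%, shares lowered because the knockdown list counts towards the 9. HDAC1 was used here from control cells alone, none of these lists was called against an input library, and the part of regions that give peaks with any antibody was not tested.

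**Figure D3:**
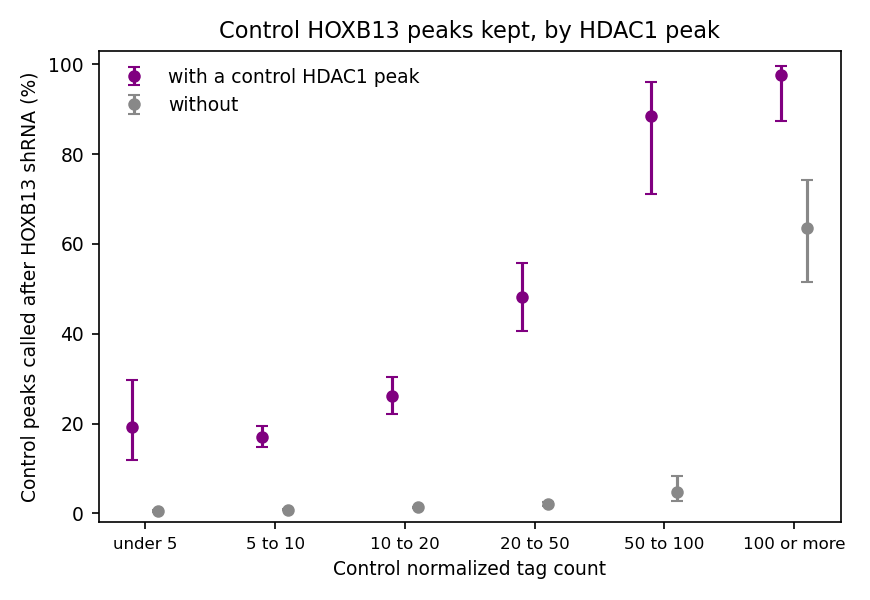
Share of control HOXB13 peaks called after HOXB13 shRNA (%, points with Wilson 95% intervals) by control normalized tag count, for peaks with a control HDAC1 peak (left point) and without (right point). In each of the 6 classes the share with HDAC1 is higher, for example 26.0% and 1.34% at 10 to 20 tags.

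Retention was also higher at sites found in more lists, though not at every step. It was 0.493% among the 15816 control peaks found in none of the other 10 lists, 0.642% with 2, 2.74% with 5, 13.9% with 8, 11.4% with 9, and 19.0% among the 232 found in all 10. By context, it was 6.05% of 5540 sites with a deacetylase and ATAC peak in the control, 5.76% of 7236 with a deacetylase peak only, 2.46% of 3856 with an ATAC peak only, and 0.676% of 74798 with neither. At 10 to 20 control tags the order was deacetylase only (4.91%), deacetylase and ATAC (3.62%), ATAC only (2.59%) and neither (1.01%).

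Of the 1353 peaks called in both libraries, 904 (66.8%) had a lower normalized tag count after HOXB13 shRNA. As log2 of HOXB13 shRNA over control, the median was -0.33 (-0.38 to -0.29) and the quartiles were -0.79 and 0.20. A log2 ratio of -1 or below was found at 239 peaks (17.7%) and one of 1 or above at 147 (10.9%). Knockdown peaks were narrower (256 against 290 bp), which alone gives a log2 ratio of -0.18 for a flat signal, and as tag density the median was -0.15. At the 799 of these peaks called in all 4 LNCaP HOXB13 libraries the median log2 ratio to the same control library was -0.44 after HOXB13 shRNA, -0.17 with WT and -0.27 with G84E.

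The kept peaks formed a low and a high band in the scatter of both libraries. Of the knockdown peaks at control sites 51.0% (690) had fewer than 1.5 times the threshold of 20 tags, and being called near that threshold limits how low the ratio can be. Among kept peaks of 10 to 20 control tags the median log2 ratio was -0.88 (359 peaks). For 20 to 50 it was -0.047, with quartiles of -1.90 and 1.03 (168 peaks). For 100 or more it was 0.45 (82 peaks, quartiles -0.21 and 0.81). At the 262 peaks of 20 or more called in all 4 LNCaP HOXB13 libraries, the log2 ratio to the control was 1 or above at 65 and -1 or below at 62 after HOXB13 shRNA. With WT these counts were 3 and 7, and with G84E 1 and 14, all against the same control library.

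**Figure D4:**
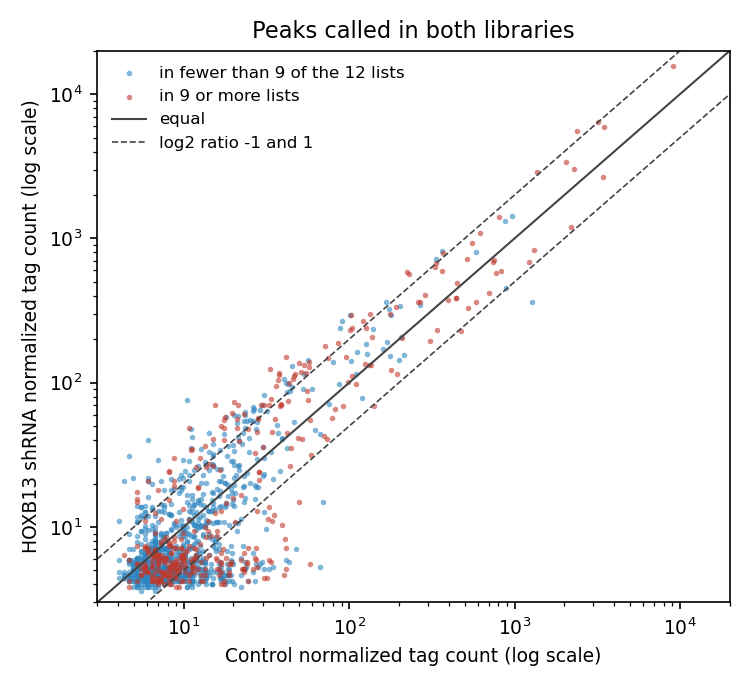
Normalized tag counts (log scales) of the 1353 peaks called in both libraries, HOXB13 shRNA on the vertical and control on the horizontal axis, coloured by the number of lists with a peak there. One band follows or exceeds the line of equality up to 15711.1 and 9132.2 tags, and the other lies flat near the knockdown threshold of 4.24 tags.

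Kept peaks at the high end of the ratio had HDAC1 more often than all kept peaks, and those at the low end had ATAC more often. Over all 1353 kept peaks 32.8% (30.4 to 35.4) had a control HDAC1 peak and 31.8% (29.4 to 34.3) a control ATAC peak. Of the 147 with a log2 ratio of 1 or above 62.6% (54.5 to 70.0) had a control HDAC1 peak and 25.9% (19.5 to 33.5) a control ATAC peak. Of the 239 with a ratio of -1 or below 21.8% (17.0 to 27.4) had HDAC1 and 43.1% (37.0 to 49.4) ATAC. Of those 147 peaks, 22 lay on mitochondrial or unplaced sequences and 18 on the Y chromosome, against 3 and 0 of the 239. Regions in 9 or more lists made up 43.5% of the first and 31.8% of the second class. The median control value was 17.8 normalized tags in the first class, 15.1 in the second and 9.60 over all kept peaks. The HDAC1 and ATAC shares were not matched on strength.

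The 5 named regions with the lowest log2 ratio were far higher with WT, with G84E and in the control. At chrX:88462180-88462470 the value was 5.30 normalized tags after HOXB13 shRNA, 104.3 with WT, 100.7 with G84E and 66.9 in the control, a log2 ratio of -3.66 (exact 95% interval -4.32 to -3.06). At chr10:45169049-45169339 it was 5.72 after HOXB13 shRNA, 63.3 with WT, 45.0 with G84E and 43.4 in the control (log2 ratio -2.92, -3.57 to -2.32), and HDAC3 there was 11.4 after HOXB13 shRNA and 25.0 in the control. At chr1:202349126-202349416 it was 5.93 after HOXB13 shRNA, 44.0 with WT, 28.5 with G84E and 41.6 in the control (log2 ratio -2.81, -3.45 to -2.22), with HDAC3 at 13.3 after HOXB13 shRNA and 36.6 in the control. The sites at chr20:45417533-45417823 and chr5:136960655-136960945 followed with log2 ratios of -2.77 and -2.71, and HDAC3 at the chromosome 20 site was 17.5 after HOXB13 shRNA and 19.0 in the control. In these 5 regions the knockdown values lay between 5.30 and 6.99, just over the threshold of 4.24.

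The named regions with the highest log2 ratio had their highest HOXB13 value in the knockdown library. At chr11:11268117-11268407 the value was 75.6 normalized tags after HOXB13 shRNA, 8.19 with WT, no peak with G84E and 10.5 in the control (log2 ratio 2.85, 2.36 to 3.39). At chr10:39128720-39129010 it was 47.5 after HOXB13 shRNA, 11.7 with WT, 11.3 with G84E and 11.1 in the control (log2 ratio 2.10, 1.60 to 2.64), with HDAC1 at 81.7 in the control. At chr19:4247510-4247800 it was 42.0 after HOXB13 shRNA, no peak with WT or G84E and 11.3 in the control (log2 ratio 1.89, 1.38 to 2.42). Log2 ratios of 1.69 and 1.67 were found at chr11:5246510-5246800 and chr7:158387812-158388102. For chr11:5246510-5246800 the knockdown peak lay at chr11:5246266-5246522, with its centre 0.261 kb away. These peaks meet only at their edges, so that ratio compares neighbouring peaks. These are picked extremes, and their intervals are not adjusted for the choice.

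The 5 kept peaks highest after HOXB13 shRNA, on the autosomes and X and in fewer than 9 lists, were high in all 4 libraries. At chr10:42400301-42400591 the values were 1435.5 after HOXB13 shRNA, 708.7 with WT, 712.0 with G84E and 968.8 in the control (log2 ratio 0.57, 0.51 to 0.63). At chr7:61970258-61970548 they were 1325.8 after HOXB13 shRNA, 745.7 with WT, 711.0 with G84E and 881.8 in the control (log2 ratio 0.59, 0.53 to 0.65). At chr21:11186484-11186774, which stood 149.1-fold over its surroundings in the knockdown library, they were 719.4 after HOXB13 shRNA, 289.8 with WT, 279.3 with G84E and 336.7 in the control (log2 ratio 1.10, 1.00 to 1.19). These regions were chosen for their high knockdown value, which favours a positive ratio. Their position relative to centromeres and repeats was not analysed. Among all 82 kept peaks of 100 or more control tags 29 had a log2 ratio below 0.

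Some strong control sites without a knockdown peak had one close by. On the autosomes and X and in fewer than 9 lists, the 4 strongest control peaks with no peak after HOXB13 shRNA and with both WT and G84E lay at chr6:58776429-58778926 (3 peaks of 678.1 to 726.1 normalized tags) and chr2:92307205-92307495 (582.0). They stood 4.78-fold to 5.19-fold over their surroundings, and a knockdown peak lay 0.445 to 9.38 kb away. Of the 10 strongest such sites, which had 102.1 to 726.1 normalized tags in the control, 3 stood more than 10-fold over their surroundings. Of these, the site at chr1:145246240-145246530 stood 20.7-fold over its surroundings with no peak after HOXB13 shRNA, 135.6 normalized tags with WT, 89.4 with G84E and 125.4 in the control, and its nearest knockdown peak lay 150.5 kb away.

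Of the control sites found with none of the other 3 LNCaP HOXB13 libraries, under the same limits, the strongest was at chr17:46806019-46806309 with 39.9 normalized tags in the control. Peaks of the other libraries flanked it within 1 kb. After HOXB13 shRNA 18.0 normalized tags lay at chr17:46805591-46805847, and WT and G84E had 20.1 and 26.0 at about the same place. WT and G84E also had 39.5 and 29.4 on the opposite side, with centres 406 and 391 bp from the control centre. The control had no further peak within 1 kb of this site, so its class here follows from peak positions. The next such sites, at chr6:34360383-34360673 and chr5:49418157-49418447, had 33.2 and 30.0 in the control.

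Most peaks of the knockdown library were in no other list. Of its 22864 peaks 5.92% lay at a control peak, and 72.5% (71.9 to 73.1) were in no other list at all, against 17.2% of the control peaks (17.0 to 17.5). With WT the share in no other list was 32.5% and with G84E 36.2%. These unique knockdown peaks were weak: they had a median of 22 tags (quartiles 21 and 25) at a threshold of 20, and 93.3% had fewer than 1.5 times the threshold. Across all peaks the share under 1.5 thresholds was 88.1% after HOXB13 shRNA and 40.8% in the control.

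**Figure D5:**
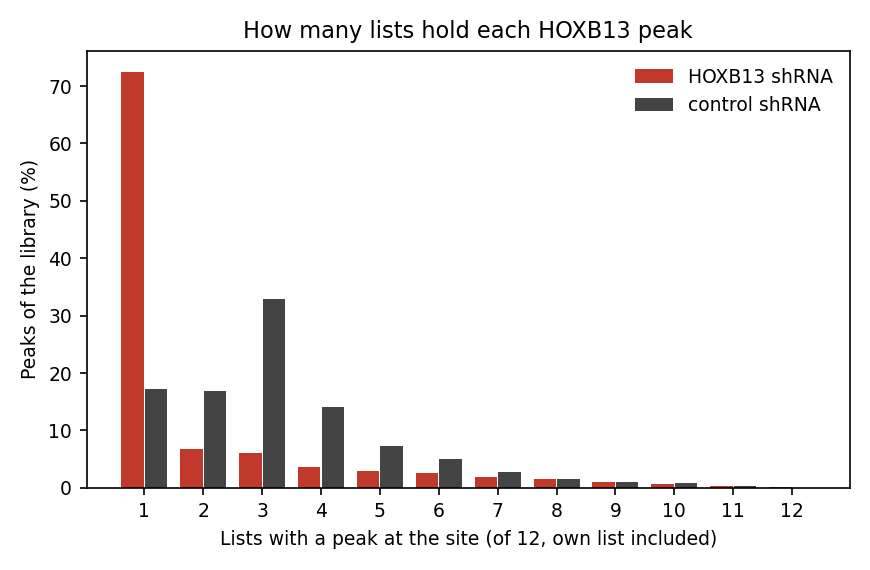
Share of each library's peaks (%) by the number of the 12 lists that hold a peak at the site, the own list included, for HOXB13 shRNA (left bars) and control shRNA (right bars). A single list holds 72.5% of the knockdown and 17.2% of the control peaks, and the control is highest at 3 lists with 33.0%.

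Of the 21511 knockdown peaks with no control peak, 3.44% (3.20 to 3.69) were called with WT and 2.97% (2.75 to 3.21) with G84E, against 67.4% and 63.2% of the lost control sites. An HDAC1 peak lay at 6.82% of them (6.49 to 7.16), against 1.48% (1.40 to 1.56) of the lost control sites, whereas HDAC3 was less common at them than at lost sites, 7.02% against 12.9%. The deposited fold over local background had a median of 5.30 after HOXB13 shRNA and 6.66 in the control, and the clonal fold, which is higher where tags pile up on the same positions, 1.12 and 0.92. The median focus ratio, the deposited share of tags placed as around a single site, was 0.781 and 0.788. The clonal fold compares lists with different settings, because the caller considered up to 2 tags per bp after HOXB13 shRNA and 1 in the control. With WT and with G84E, also at 2 tags per bp, its median was 0.97.

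The strongest knockdown peaks without a control peak lay within 13.8 kb of one. The 10 strongest on the autosomes and X and in fewer than 9 lists carried 159.5 to 650.1 normalized tags and stood 4.07-fold to 8.92-fold over their surroundings. A PC-3 H3K27ac region of the control, of 139 to 3541.3 normalized tags, lay over each of the 10, and a control HOXB13 peak lay 0.443 to 13.8 kb away. Over all 21511 knockdown peaks with no control peak, 13.2% had such a PC-3 H3K27ac region, and the 10 were picked for their tag count. Distance to a control peak was not measured over all 21511, and the control list had a median of 31.7 peaks per Mb. The highest was at chr6:58779098-58779354, 0.445 kb from the lost control peak of 726.1 normalized tags. Those at chr11:51582628-51582884 (620.6 normalized tags) and chr10:42534948-42535204 (545.6) followed. Where these 10 peaks lie relative to centromeres and repeats was not analysed. Whether such places give peaks with any antibody was not tested.

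A few sharply focused peaks were found after HOXB13 shRNA and in no other LNCaP HOXB13 library. At chr2:199142232-199142488 the value was 28.2 normalized tags after HOXB13 shRNA, 46.9-fold over the surroundings, with no peak with WT, with G84E or in the control. At chr12:119195401-119195657 it was 30.3 (37.3-fold), again with none in the other 3 libraries. At chrX:53039531-53039787 it was 20.6 (51.3-fold), and no other of the 12 lists had a peak there. On the autosomes and X and in fewer than 9 lists, 19 knockdown peaks reached 30-fold, against 425 in the control, from full lists of 22864 and 91430 peaks. Of the 19, 11 lay at a control peak and 7 in no other LNCaP HOXB13 library. Over all 22864 knockdown peaks 5.92% lay at a control peak, and 72.5% were in none of the other 11 lists. Focused knockdown peaks thus lay at a control peak more often than knockdown peaks in general.

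Strong unique peaks were also crowded into 1 place. Of the 101 knockdown peaks in no other list with 10 or more normalized tags, 21 lay at chr17:15937999-16100234. This was the densest 200 kb of the genome for unique knockdown peaks, with 23 of them, and the next, on chromosome 1, held 10, none of which reached 10 tags. The 23 peaks had a median of 19.7 normalized tags (5.72 to 49.8) and a median fold over the surroundings of 10.1. In the same interval the list after HOXB13 shRNA had 30 peaks in all, WT 22, G84E 22 and the control 10.

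Knockdown peaks were spread unevenly over chromosomes, with few on X and 13. Over the 22 autosomes and X the density had a median of 8.07 peaks per Mb after HOXB13 shRNA and 31.7 in the control. The X chromosome had 0.657 per Mb after HOXB13 shRNA and 8.42 in the control, which is 8.14% and 26.6% of those medians. Chromosome 13 had 2.01 and 18.6 per Mb. Chromosome 17 was highest after HOXB13 shRNA with 11.4 per Mb, against 33.3 in the control. Set against its control peaks, chromosome 19 had the most knockdown peaks of the 23, 588 and 1306 (45.0%).

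Local tag density differed along with these numbers. Dividing each peak's density by its deposited fold over the surroundings gave a local density on X of 60.1% of the median chromosome after HOXB13 shRNA and 61.3% in the control, and on chromosome 13 of 77.6% and 87.0%. Across the 23 chromosomes peaks per Mb and local density had a Spearman correlation of 0.76 after HOXB13 shRNA and 0.86 in the control, and of 0.69 and 0.81 without chromosomes 13 and X. Both measures come from the same peaks of the same library, so this is a description. Chromosome copy number was not measured, and the part of local tag density in the distribution was not tested.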

How the data were processed

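Peak lists of 12 libraries of the 16 samples were used. The submitters' processing notes list Bowtie2, HOMER 4.2 and hg19. Each library was called separately by the authors with HOMER findPeaks at a false discovery rate of 0.001 and without an input library, per the file headers. The factor style requires 4-fold over the surrounding 10000 bp at a local Poisson p-value of 0.0001, per the file headers. The caller considered up to 2 tags per bp after HOXB13 shRNA and 1 in the control, so the deposited scores of these lists are not on 1 scale, and scores ranked peaks only within a list. The deposited signal is the normalized tag count, scaled to 10000000 tags. The deposited fold over local background, clonal score and focus ratio (a fraction) are the authors' values for each peak. Whole tags were recovered from the signal and the library totals. All values under 10 were whole within 0.1 tags (100%).

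An overlap of 1 bp or more made 2 peaks shared, and among several overlapping peaks the one with the highest normalized tag count counted. Shares have Wilson 95% intervals, medians order-statistic intervals in the tables, and ratios at regions exact 95% intervals (Clopper-Pearson) computed on recovered tags. Regions called in 9 or more of the 12 lists were counted separately. This number includes the knockdown list, so kept control peaks reached it with fewer other lists than lost ones. Chromosome length was taken as the last peak end in any list. Named regions on the autosomes and X in fewer than 9 lists were the 10 strongest lost control peaks found with WT and G84E, the 5 strongest lost ones found with neither, the 10 strongest knockdown peaks without a control peak, the 5 largest falls and 5 largest rises among kept peaks at or above the control median, and the 5 kept peaks highest after HOXB13 shRNA. The focused sites of 30-fold or more, the focused knockdown peaks, the split by HDAC1, the densest interval and the flanking peaks on chromosome 17 were chosen after their values were seen. Members, regions and classes were chosen with earlier results of these data known.

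The overlap and ratio code was tested on simulated peaks. Alternatives were other overlap rules, the better-scoring 50% of each list, equal numbers of peaks, a common floor, autosomes and X only, lists without widely called regions, tag density and centred ratios. Genes at the peaks, motifs and peak sequences were not analysed here, for want of a reference of the same build. Calculations used Python 3.11.15, numpy 2.4.6, pandas 2.3.3 and scipy 1.17.1, and figures matplotlib 3.10.9.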

Additional observations from a re-analysis of the deposited data

How the results depend on the processing

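Control peaks were called again after HOXB13 shRNA at 1.48% in the full lists. The share was 0.818% with centres within 100 bp, 1.03% where 50% of the shorter peak had to overlap, 1.66% in the better-scoring 50% of the lists, 2.73% with 22864 peaks from each list, 1.38% on autosomes and X only and 1.04% without regions in 9 or more lists. In the same order the share of knockdown peaks at control sites was 3.27%, 4.11%, 6.63%, 2.73%, 5.53% and 4.18%, against 5.92% in the full lists. The share of lost sites found with WT was 56.9% with close centres, 62.8% with the overlap of 50%, 75.7% in the better-scoring lists, 59.1% with equal numbers and 66.8% without widely called regions. For knockdown peaks without a control peak the share with WT was 1.45%, 1.88%, 2.39%, 0.364% and 3.11% in that order. Because the knockdown list counts towards the 9 lists, leaving out widely called regions lowers the share of control peaks called again.

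The median log2 ratio at kept peaks stayed below 0 unless ratios were centred on it, which makes it 0. It was -0.17 with close centres, -0.24 with the overlap of 50%, -0.28 in the better-scoring lists, -0.40 with equal numbers and -0.15 as tag density. The share with a ratio of -1 or below was 14.0% with close centres, 33.4% with equal numbers, 13.4% as tag density and 11.1% when centred. The common floor of 3.49 normalized tags changed none of these results beyond its interval. Of 15 named regions with a ratio, 10 stayed within their counting interval as tag density, 5 moved outside it and 0 changed direction. No paired analysis was possible because each group held 1 library. How far repeated libraries of 1 condition would overlap is not known here, and the lists give no tag count where no peak was called.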
